A study of Mus musculus with 4 samples.

Results

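The cells described here are Csf1r-positive mononuclear phagocytes of mouse melanomas that carried monocyte transcripts and the C1q complement transcripts of macrophages at the same time, with little of the transcripts that mark further macrophage states. The cells were chosen by raw counts of unique molecular identifiers (UMIs, one per captured messenger RNA molecule) in each cell: at least 1 for Csf1r, the receptor for the macrophage growth factor CSF1; at least 3 for Ly6c2 plus Ms4a4c; more than 10 for C1qa, C1qb and C1qc together; and fewer than 4 for Vcam1 plus Lpl. Cells with 20 or more UMIs of Arg1, Spp1 and Mmp12, with 3 or more of Folr2 and Cbr2 or of Cd300e and Lipg, with more than 1 of the CD3 genes, or with 10 or more of Mlana and Dct were left out. The gate held 312 of 8677 kept cells (3.60%), out of 8838 deposited barcodes. They are called the intermediates, a name for their levels and not for a path, since no time course or lineage tracing belongs to these data.

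CD45-positive leukocytes of B16-F10 melanomas, implanted in C57BL/6 mice from which the line derives, had been profiled by single-cell RNA sequencing in droplets (10x 3′ v2 chemistry). Libraries S1 and S2 came from Adar1-null tumours and libraries S3 and S4 from control tumours, all implanted as 2000000 melanoma cells in matrigel and taken on day 14. Adar1, encoded by Adar, edits adenosine to inosine in double-stranded RNA, and the labels place its loss in the tumours, so Adar in the leukocytes does not check the genotype. In all groups the tissue was digested for 10 min at 37 °C with collagenase P and DNase I, and an Optiprep gradient followed by magnetic CD45 selection gave the cells loaded. The labels do not give sex or age, which cells of the tumour kept Adar, or whether the libraries of a genotype came from separate mice, and every p-value reflects the spread among these 4 libraries alone.

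Classical monocytes enter inflamed tissue and tumours from blood through the chemokine receptor CCR2 and its ligands CCL2, CCL7 and CCL12. There they can lose monocyte genes such as Ly6c2 and Plac8 and gain genes of macrophages, among them C1q, the recognition unit of the classical complement pathway, lysosomal enzymes and lipid-handling proteins. Type I interferon and interferon-gamma induce antiviral genes and genes of antigen presentation in both kinds of cell, and Ly6c2 and Ms4a4c are themselves known to respond to interferon.

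Library S1 gave 87 intermediates, S2 127, S3 65 and S4 33, with 567720, 884297, 529074 and 237933 UMIs in all. The median cell held 5573, 6443, 7916 and 6745 UMIs in S1 to S4. Each level is therefore least precise in S4. No pair of libraries agreed within sampling noise over genes: the chi-square per gene was lowest, at 1.60, for S1 and S3. None of the intermediates had a doublet score over 0.1, although 108 kept cells did. Of 38 barcodes found in more than 1 library, 2 belonged to an intermediate.

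The values that chose the cells are given as a description. The sum of the C1q genes had a median of 63.5 UMIs and ranged from 11 to 329. Of the intermediates, 4 stood at 11, just inside the threshold, and 2 otherwise matching cells stood at 10, just outside. The sum of Ly6c2 and Ms4a4c had a median of 8 and ranged from 3 to 70, with 41 cells at 3 and 54 otherwise matching cells at 2. For Vcam1 plus Lpl, 41 cells stood at 3 and 25 otherwise matching cells at 4. C1q thus separated the cells from C1q-low monocytes with few cells near the threshold, whereas more cells lay at the thresholds on Ly6c2 plus Ms4a4c and on Vcam1 plus Lpl, and the intermediates are a range of levels there and not a discrete type.

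3 neighbour gates serve for comparison, all with the other exclusions of the rule. C1q-low monocytes (406 cells) had 10 or fewer C1q UMIs. Ly6c2/Ms4a4c-low C1q cells (279 cells) had fewer than 3 of Ly6c2 plus Ms4a4c. Vcam1/Lpl C1q cells (729 cells) had 4 or more of Vcam1 plus Lpl, at any level of Ly6c2 and Ms4a4c, so they differ from the intermediates in 2 conditions; 228 of them had 3 or more UMIs of Ly6c2 plus Ms4a4c. Differences between gates are descriptions without a test, since the gates were set on the same cells.

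Intermediates made up a larger share of the cells in both Adar1-null libraries than in either control library. They were 4.41% of kept cells in S1 (95% exact binomial interval 3.55 to 5.41), 6.49% in S2 (5.44 to 7.67), 3.31% in S3 (2.57 to 4.20) and 1.18% in S4 (0.817 to 1.66). The genotypes did not overlap, but S1 and S3 lay within counting error of each other. The mean was 5.45% ± 1.47 (SD, n = 2) in Adar1-null and 2.25% ± 1.51 (SD, n = 2) in control tumours. A two-sided exact permutation test over the 4 libraries gave p = 0.333, the smallest value this design allows.

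As a share of the 4 gates together, intermediates were 19.2% in S1, 28.3% in S2, 14.3% in S3 and 8.92% in S4. The order of the libraries was the same, and the exact permutation p was again 0.333 (2 comparisons, adjusted p 0.333). The C1q-low monocytes took 34.4% of the gated cells in S2 and 16.8% to 21.8% in the other libraries, the Ly6c2/Ms4a4c-low C1q cells 14.5%, 6.92%, 13.4% and 32.7% in S1 to S4, and the Vcam1/Lpl C1q cells 46.3%, 30.4%, 50.4% and 41.6%. S2 held the largest share of C1q-low monocytes and S4 the largest share of Ly6c2/Ms4a4c-low C1q cells. The gate reads Ly6c2 and Ms4a4c, whose level in a cell moves with the interferon genes described further on, and the part of this in the shares was not tested.

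**Figure D1:**
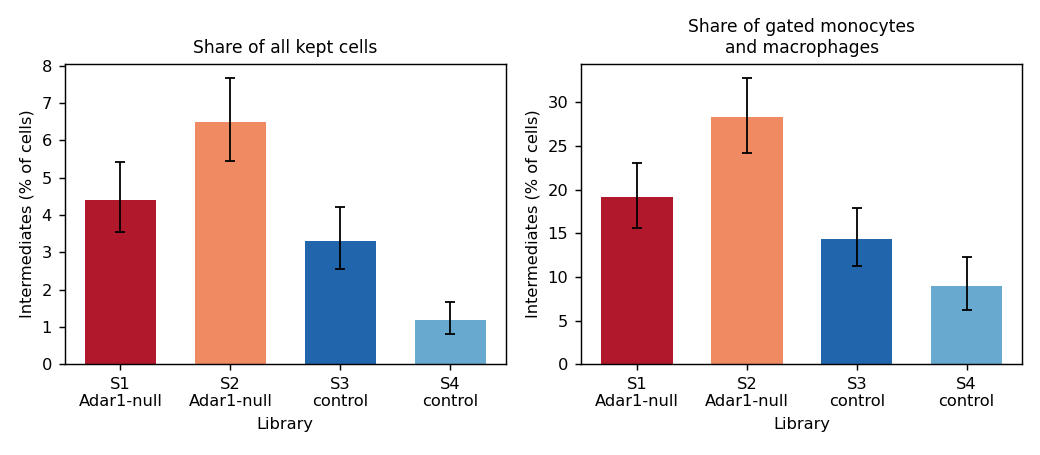
Share of intermediates in each library, as a percentage of all kept cells (left) and of the cells of the 4 monocyte and macrophage gates (right); bars are single libraries and error bars are exact 95% binomial intervals for counting error. On the left, S1 and S2 stand at 4.41% and 6.49% and S3 and S4 at 3.31% and 1.18%.

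The label's marker genes were checked first. Ms4a4c, a membrane protein gene of the Ms4a cluster on chromosome 19 (GRCm38, 11404770 to 11427246), helped choose the cells. Its level, in UMIs of the gene per 1000000 UMIs of the gate (CPM), was 805 in S1, 969 in S2, 713 in S3 and 794 in S4. This was close to the 964, 1070, 756 and 540 CPM of C1q-low monocytes, so Ms4a4c did not set the intermediates apart from monocytes.

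The chemokine genes Ccl7 and Ccl12, which lie near each other on chromosome 11 and encode CCR2 ligands, were higher than in monocytes in all 4 libraries. Ccl12 stood at 1083, 1480, 1251 and 2206 CPM in S1 to S4 against 386, 1052, 485 and 211 CPM in C1q-low monocytes. Ccl7 stood at 2198, 3547, 3147 and 3018 CPM against 1323, 2266, 2008 and 1114 CPM. Vcam1/Lpl C1q cells had as much of both, since the intermediates were above them in 2 of 4 libraries for each gene. Ccl2 was above monocytes in 2 libraries and above Vcam1/Lpl C1q cells in 1. In S4, 210 of the 525 Ccl12 UMIs came from 1 cell, without which the level there was 1391 CPM.

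Fcgr1, the high-affinity receptor for IgG, was the marker that stood highest in this gate. Its level was 749, 848, 661 and 643 CPM in S1 to S4, above all 3 neighbour gates in every library. Fcgr4, another activating IgG receptor, stood at 611, 887, 743 and 378 CPM, above monocytes in 4 libraries and above Vcam1/Lpl C1q cells in 3. By the share of cells with a UMI after thinning every cell to 3900 UMIs, Fcgr1 was found in 86.2% of intermediates (94.6% unthinned) and in 4.72% of T cells (8.76% unthinned), which should lack it, at median depths of 6539 and 8718 UMIs. Fcgr4 was found in 80.8% after thinning (90.1% unthinned) against 4.79% of T cells (9.36% unthinned). Most neighbour cells held both genes as well. After thinning, Fcgr1 was found in 77.3% of C1q-low monocytes, 59.5% of Ly6c2/Ms4a4c-low C1q cells and 71.2% of Vcam1/Lpl C1q cells. Fcgr4 was found in 52.5%, 64.9% and 74.9% of these gates in the same order. All of the label's markers were present in these cells, and Fcgr1 alone among them was above every neighbour in every library.

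Over the 2530 genes with a mean of at least 50 CPM, 15.4% lay between C1q-low monocytes and Vcam1/Lpl C1q cells in all 4 libraries, 3.16% above both and 2.77% below both. Classical monocyte genes were the clearest group in between, with 11 of the 14 that reached this level. Of 16 measured against C1q-low monocytes, 15 were lower in all 4 libraries, where 21.3% of all genes were. Of 12 measured against Vcam1/Lpl C1q cells, 10 were higher, where 21.9% of all genes were.

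Plac8, a gene of young monocytes, stood at 2841, 3024, 2276 and 2206 CPM in the intermediates of S1 to S4, against 6473, 6799, 6054 and 4175 CPM in C1q-low monocytes and 294, 658, 449 and 201 CPM in Vcam1/Lpl C1q cells. Ccr2, the receptor that brings monocytes out of the marrow and into tissue, stood at 442, 398, 342 and 420 CPM against 616, 598, 614 and 563 CPM in monocytes and 75.4, 117, 112 and 42.5 CPM in Vcam1/Lpl C1q cells. Both genes stepped down from monocytes to intermediates to Vcam1/Lpl C1q cells in every library. Vcan (versican) and Hp (haptoglobin) were lower than in monocytes in 4 of 4 libraries, by mean log2 differences of -1.42 and -2.71. Cd209a, a lectin gene that marks a subset of monocytes and monocyte-derived dendritic cells, was near background, at 4.20 to 11.3 CPM against 88.5 to 156 CPM in C1q-low monocytes.

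Macrophage maturation genes went the other way. Of 20 measured, 18 were higher than in C1q-low monocytes in all 4 libraries, where 18.2% of all genes were, and 9 of 21 were lower than in Vcam1/Lpl C1q cells, where 23.5% were. Ms4a7, another Ms4a gene and one of C1q macrophages, stood at 747, 383, 953 and 433 CPM in S1 to S4 against 201, 121, 98.7 and 23.1 CPM in monocytes. Vcam1/Lpl C1q cells stood at 824, 885, 634 and 761 CPM, above the intermediates in 3 libraries and below them in S3. Nr1h3, which encodes the oxysterol receptor LXR-alpha, was at 139, 88.2, 102 and 84.1 CPM against 26.7, 38.2, 31.8 and 7.72 CPM in monocytes.

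Other macrophage genes lay between the neighbours. Cd63, a tetraspanin of lysosomes, stood at 240, 257, 344 and 399 CPM, between 55.5, 125, 102 and 51.4 CPM in monocytes and 851, 686, 603 and 1192 CPM in Vcam1/Lpl C1q cells. Cd81, another tetraspanin, was lower than in Vcam1/Lpl C1q cells by a mean log2 difference of -1.82. Ccl8, a monocyte-attracting chemokine gene, lay in between as well, at 844, 1542, 1448 and 887 CPM against 236, 176, 167 and 113 CPM in monocytes. Gdf15, a stress-induced cytokine gene, was at 0 to 19.4 CPM in the intermediates and at 54.0 to 250 CPM in Vcam1/Lpl C1q cells. With 0 CPM as its lowest value, Gdf15 did not lie above monocytes in every library.

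Among the genes above both neighbours, Fc receptor genes stood out by number, with 4 of 6 (Fcgr1, Fcgr2b, Fcgr3 and Fcer1g) in all 4 libraries. Their smallest log2 margins were 0.328 for Fcgr2b, 0.160 for Fcer1g, 0.107 for Fcgr1 and 0.0034 for Fcgr3. Fcgr3 was thus level with a neighbour in at least 1 library. Fcgr2b, the inhibitory IgG receptor, stood at 659, 612, 525 and 740 CPM against 423, 471, 418 and 360 CPM in monocytes and 320, 441, 271 and 452 CPM in Vcam1/Lpl C1q cells. The genes furthest above both were Ly6a (Sca-1), H2-Q7 (a nonclassical MHC class I gene), Aif1 (the cytoskeletal protein IBA1), Fcgr2b and Lst1. Ly6a was at 1677, 2833, 1811 and 1147 CPM, at least 0.44 on the log2 scale above the higher neighbour in each library. The margin is small for most of the 80 genes of this kind.

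Antigen presentation genes were higher in the intermediates than in the C1q neighbours, with less difference from monocytes. All 7 MHC class II genes measured and all 15 MHC class I genes measured were higher than in Vcam1/Lpl C1q cells in 4 of 4 libraries, where 21.9% of all genes were. H2-Ab1, a class II chain gene, was at 8839, 8986, 8205 and 3459 CPM against 2951, 4130, 3721 and 2194 CPM there. Against C1q-low monocytes 1 of 8 class II genes was higher and 1 lower in all libraries, and 4 of 15 class I genes were higher and 2 lower. Of all genes, 18.2% were higher and 21.3% lower than in C1q-low monocytes in all libraries. Interferon-stimulated genes behaved alike: 25 of 32 were higher than in Vcam1/Lpl C1q cells and 26 of 30 higher than in Ly6c2/Ms4a4c-low C1q cells, where 24.2% of all genes were, but 11 of 36 were lower than in C1q-low monocytes and 3 higher.

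**Figure D2:**
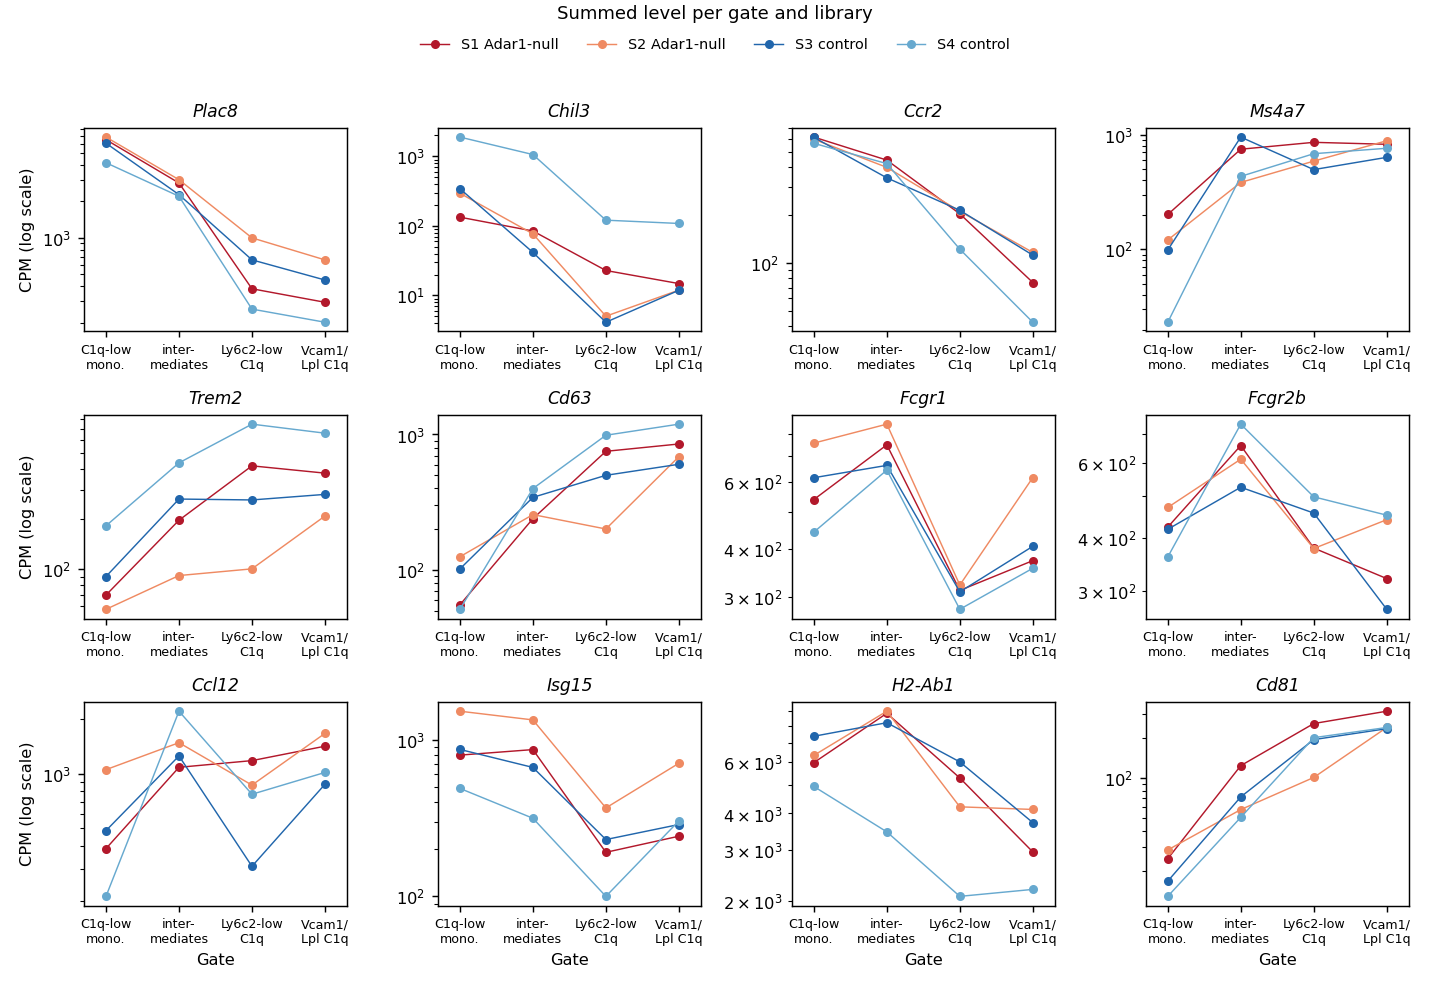
Level of 12 genes in the 4 gates, in CPM of each gate's summed UMIs on a log axis; each line joins the gates of 1 library, and the gate shown as Ly6c2-low C1q is the one low in Ly6c2 plus Ms4a4c. Plac8, Ccr2 and Cd81 change in steps from monocytes to Vcam1/Lpl C1q cells, and Fcgr1 and Fcgr2b peak in the intermediates.

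The intermediates were not uniform. In each library they were divided at the median ratio of C1q UMIs to Ly6c2 plus Ms4a4c UMIs into C1q-leaning and Ly6c2/Ms4a4c-leaning cells. Of the 312, 47 lay within 0.25 log2 of the dividing ratio. Since the ratio chose the cells, the differences are a description. Of 2481 genes with a mean of at least 50 CPM, 10.3% were higher and 14.5% lower in the C1q-leaning cells in all 4 libraries.

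Macrophage maturation genes followed C1q, with 14 of 21 higher in the C1q-leaning cells in all libraries and 0 lower. Trem2, a lipid-sensing receptor of macrophages, was at 304 against 83.6 CPM in S1, 127 against 52.2 in S2, 334 against 176 in S3 and 644 against 217 in S4. Ms4a7, Ccl8 and Nr1h3 differed by mean log2 values of 1.89, 2.06 and 1.72. Classical monocyte genes followed Ly6c2 and Ms4a4c, with 9 of 14 lower in the C1q-leaning cells. Plac8 was at 1566 against 4196 CPM in S1, 1801 against 4365 in S2, 862 against 4082 in S3 and 399 against 4130 in S4.

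Type I interferon-stimulated genes were lower in the C1q-leaning cells in 23 of 35 cases and higher in none. Isg15, a ubiquitin-like protein that is attached to other proteins in antiviral defence, was at 462 against 1293 CPM in S1, 977 against 1733 in S2, 438 against 956 in S3 and 212 against 425 in S4. Irf7, the transcription factor that amplifies interferon production, was at 568 against 1097, 620 against 1309, 398 against 633 and 383 against 633 CPM. Cxcl10, a T cell attractant induced by interferon, was lower by a mean log2 value of -1.61. MHC class II genes did not follow, with 0 of 7 higher and 2 lower (H2-DMa and H2-DMb1). Ly6c2 and Ms4a4c, which respond to interferon, are in the ratio that divided the cells, and their part in this difference was not tested.

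**Figure D3:**
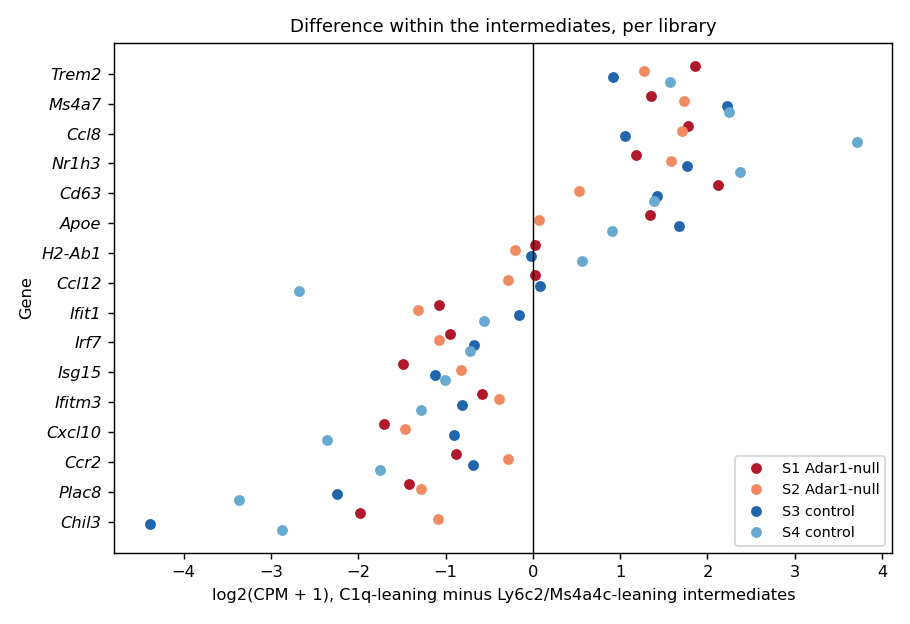
Difference in log2(CPM + 1) between C1q-leaning and Ly6c2/Ms4a4c-leaning intermediates for 16 genes; each point is 1 library. Trem2, Ms4a7, Ccl8, Nr1h3 and Cd63 lie to the right of 0 in all 4 libraries and Irf7, Isg15, Ifitm3, Ccr2, Plac8 and Chil3 to the left.

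Counts were then summed over the intermediates of each library and compared between the genotypes with edgeR's quasi-likelihood test and Benjamini-Hochberg adjustment over all genes tested. The genes that chose the cells are left out of what follows. Of 5078 genes tested, 0 were higher (0%) and 1 was lower (0.0197%) in Adar1-null tumours at an adjusted p of 0.05. At an unadjusted p under 0.05 there were 172 higher and 165 lower, and DESeq2 called 0 higher and 3 lower (Fn1, Hp and Slpi). In simulated data of the same size the test called 41.7% of genes changed by 1 on the log2 scale and 95.9% of those changed by 2. The simulation gave every gene the same dispersion (0.0225), so these shares do not hold for genes that vary more between libraries. Changes near or under 2-fold could therefore be missed with these libraries, and larger ones as well. Fn1, at a log2 change of -2.77, and Stmn1, at -1.89, were not called by edgeR.

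The gene called was Slpi, which encodes a secreted inhibitor of neutrophil elastase and related proteases and lies on chromosome 2 (GRCm38, 164354070 to 164389095, minus strand). Its level was 10.6 CPM in S1, 5.65 in S2, 56.7 in S3 and 92.5 in S4. Both Adar1-null libraries were below both control libraries. The log2 change was -3.18 ± 0.44 (SE), with an edgeR quasi-likelihood adjusted p of 0.00597. The value rests on few molecules: 6, 5, 30 and 22 UMIs in 4, 5, 8 and 12 cells, and 15 of the 30 UMIs in S3 came from 1 cell, without which S3 stood at 28.7 CPM, still above S1 and S2. With gate and sums on thinned UMIs the adjusted p was 0.122. In C1q-low monocytes Slpi was at 94.5, 180, 92.0 and 442 CPM and overlapped between the genotypes. The difference in response from C1q-low monocytes was not significant (edgeR interaction adjusted p 0.524). In both C1q neighbour gates Slpi was also lower in Adar1-null tumours without overlap. It stood at 0.463, 7.72, 11.9 and 34.9 CPM in Vcam1/Lpl C1q cells of S1 to S4. Ly6c2/Ms4a4c-low C1q cells held 10.4, 15.1, 30.9 and 57.0 CPM, from 5, 3, 15 and 49 UMIs. In S3, 14 of the 15 came from 1 cell. Without the richest cell of each library these cells stood at 2.10, 0, 2.08 and 25.8 CPM, and the genotypes overlapped. Vcam1/Lpl C1q cells then stood at 0, 5.64, 7.81 and 24.3 CPM, still without overlap.

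Type I interferon-stimulated genes were higher in Adar1-null tumours as a group, although none passed the test. Of the 54 members with a UMI, 52 passed the filter on low counts, and 47 of those had a positive log2 change, where 49.4% of all genes tested did. In 36 of the 52 both Adar1-null libraries were above both control libraries and in 1 below, where 20.5% and 16.5% of all genes were. The median log2 change was 0.49, against -0.00 for all genes. With no filter, 50 of 54 had a higher mean level in Adar1-null tumours, where 53.1% of all genes with a UMI did.

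**Figure D4:**
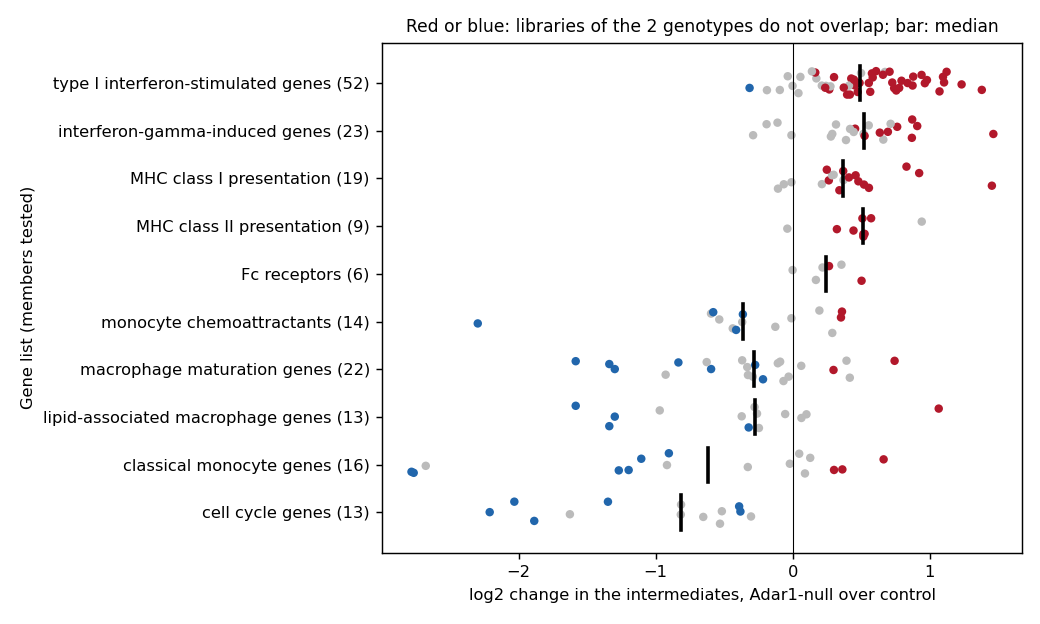
Log2 change of Adar1-null over control in the intermediates for the members of 10 gene lists that passed the filter on low counts; each point is a gene, red and blue points are genes whose libraries do not overlap between genotypes (higher or lower in Adar1-null), and black bars are list medians. The medians are 0.49 for type I interferon-stimulated genes and -0.81 for cell cycle genes, and no gene shown passed the edgeR test. A gene could pass the filter on low counts through the libraries of 1 genotype alone.

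Irf7 was at 824 CPM in S1, 949 in S2, 501 in S3 and 504 in S4. The genotypes did not overlap and the 2 control libraries were alike. Its log2 change was 0.79 ± 0.18 (SE), with an edgeR adjusted p of 0.304. Isg15 was at 865, 1338, 665 and 315 CPM, so S2 was highest and S4 lowest, with a log2 change of 1.10 ± 0.39 (edgeR adjusted p 0.672). Ifi27l2a, an interferon-induced mitochondrial protein gene, reached 2300, 2483, 1314 and 647 CPM in the same order. Oasl1, a 2′-5′-oligoadenylate synthetase-like gene, was at 63.4, 93.9, 30.2 and 29.4 CPM. Slfn4, a Schlafen gene of myeloid cells, was at 54.6, 39.6, 15.1 and 8.41 CPM. None of these overlapped between the genotypes.

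Interferon-gamma-induced genes had positive changes in most cases, with more spread, and none passed the test. Of the 27 with a UMI, 23 were tested and 19 had a positive change, where 49.4% of all genes did. The median was 0.52, and 9 were higher without overlap between genotypes, where 20.5% of all genes were. Without S2 the median was 0.01 and 12 of 23 were positive, so this group rested on S2. Gbp3, a guanylate-binding protein gene of cell-autonomous defence, was at 167, 226, 121 and 75.7 CPM, with a log2 change of 0.91 ± 0.26 (edgeR adjusted p 0.404). Gbp7 was at 120, 138, 77.5 and 88.3 CPM. Both kept the 2 genotypes apart, with S2 highest.

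The sequences upstream of such genes are shown because members of both lists lay on the same side of 0. The core of the interferon-stimulated response element (GAAA, any 2 bases, GAAA; on the opposite strand TTTC, any 2 bases, TTTC) was searched on both strands in the 250 bases before each start in a table of RefSeq promoters (GRCm38.p6). It was present for 3.46% of 27025 genes, for 18 of the 42 type I interferon-stimulated genes found in the table (42.9%) and for 10 of 17 interferon-gamma-induced genes (58.8%). Below are the 120 bases before the start of the 2 genes of each list with the smallest unadjusted p among those with a match in this window, read 5′ to 3′ on the gene's strand, with matches in capitals; overlapping matches run together. Of the 2 starts listed for Gbp3, the one with a match is shown. A match is a description of the letters and not a binding site.
Isg15, chr4:156200819-156200938, minus strand: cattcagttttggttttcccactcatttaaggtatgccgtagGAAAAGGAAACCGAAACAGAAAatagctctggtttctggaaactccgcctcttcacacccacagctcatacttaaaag
Oas3, chr5:120777660-120777779, minus strand: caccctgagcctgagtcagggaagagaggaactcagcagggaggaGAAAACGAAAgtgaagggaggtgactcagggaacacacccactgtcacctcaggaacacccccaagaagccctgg
Gbp3, chr3:142559924-142560043, plus strand: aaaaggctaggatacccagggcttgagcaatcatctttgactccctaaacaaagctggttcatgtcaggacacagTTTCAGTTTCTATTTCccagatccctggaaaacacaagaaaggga
Gbp7, chr3:142530216-142530335, plus strand: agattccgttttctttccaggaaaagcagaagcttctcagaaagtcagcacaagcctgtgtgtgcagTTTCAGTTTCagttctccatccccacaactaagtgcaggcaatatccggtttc
Isg15 held 3 overlapping matches, Gbp3 2, and Oas3 and Gbp7 1 each. Oasl1, Irf7 and Slfn4 held none in their 250 bases, though their levels separated the genotypes as well.

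No MHC class I or class II presentation gene passed the test. The change was positive for 16 of 19 class I genes tested (20 with a UMI), and 12 were higher without overlap, where 20.5% of all genes were. With no filter, 16 of the 20 had a higher mean level in Adar1-null tumours and 4 a lower one. The class I median was 0.37, but 0.14 without S2 and 0.22 without S4. H2-Q6, a nonclassical class I gene, was at 74.0, 74.6, 22.7 and 33.6 CPM, with a log2 change of 1.45 ± 0.35 (edgeR adjusted p 0.304). H2-Q genes are near-identical copies, so reads may be shared among them. Tap1, a subunit of the transporter that supplies peptides to class I molecules, was at 349, 441, 280 and 244 CPM. The change was positive for 8 of 9 class II genes tested (11 with a UMI), with a median of 0.52. Of all genes tested, 49.4% had a positive change. Without overlap 7 class II genes were higher, where 20.5% of all genes were. With no filter, 8 of the 11 had a higher mean level in Adar1-null tumours and 3 a lower one. Of all genes with a UMI, 53.1% had a higher one. S4 was lowest: Cd74, the invariant chain gene, was at 12455, 12776, 11306 and 5918 CPM. The class II median was 0.11 without S4, 0.999 without S3 and 0.22 with equal cells per library.

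The neighbour gates, which come from the same 4 libraries and are no separate evidence, also had positive changes in most type I interferon-stimulated genes; whether the lists responded alike in the gates was not tested. In C1q-low monocytes 48 of 51 type I interferon-stimulated genes had a positive change with a median of 0.58, and 24 did not overlap, where 19.1% of all genes were higher without overlap. In Vcam1/Lpl C1q cells 52 of 53 were positive with a median of 0.54, and 17 did not overlap, where 13.2% were. In Ly6c2/Ms4a4c-low C1q cells 31 of 40 were positive with a median of 0.34, and 10 were higher and 2 lower without overlap, where 21% of all genes were higher. For Irf7 the difference in response was -0.35 from monocytes and -0.02 from Vcam1/Lpl C1q cells, with edgeR interaction adjusted p of 0.963 and 0.999. For MHC class II genes the medians were -0.11, 0.23 and 0.00 in monocytes, Vcam1/Lpl C1q cells and Ly6c2/Ms4a4c-low C1q cells; for H2-Ab1 the difference from monocytes was 0.73 (edgeR interaction adjusted p 0.459).

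Most cell cycle genes had a lower mean level in the intermediates of Adar1-null tumours, and none passed the test. All 22 members had a UMI and 13 passed the filter on low counts. Over the 22, the mean level was lower in Adar1-null tumours for 20, where 46.9% of all genes with a UMI were lower. Stmn1, which destabilises microtubules in dividing cells, was at 47.6 CPM in S1, 23.7 in S2, 113 in S3 and 139 in S4. Both Adar1-null libraries were below both controls, with a log2 change of -1.89 ± 0.33 and an edgeR adjusted p of 0.0618. With a C1q sum over 20 in the gate, Stmn1 was the 1 gene called and Slpi did not pass the filter on low counts. Top2a, the topoisomerase of replicating chromosomes, was at 14.1, 11.3, 54.8 and 42.0 CPM, from 8, 10, 29 and 10 UMIs.

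These counts come from few cells. Mki67, the common proliferation marker, had UMIs in 3 of 87, 2 of 127, 5 of 65 and 4 of 33 intermediates in S1 to S4. The 60 Stmn1 UMIs of S3 came from 12 cells, 17 of them from 1. Without S2 the median log2 change over the tested cell cycle genes was -0.11, against -0.81 with it, so the size of the group difference rested on S2. A member can pass the filter on low counts through the control libraries alone. The median therefore describes members picked partly by a high control level. With gate and sums on thinned UMIs 3 members could be tested, 1 of them positive, with a median of -0.06.

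Classical monocyte genes showed no direction that held across the libraries. All 16 were tested and none passed. Of these, 6 had a positive change, 6 were lower and 3 higher without overlap, where 16.5% and 20.5% of all genes were. The median was -0.62, but 0.23 without S4 and -0.25 with thinned UMIs. S4 stood apart in Chil3, a chitinase-like protein of monocytes, at 84.5, 76.9, 41.6 and 1063 CPM in S1 to S4, in Hp at 17.6, 15.8, 52.9 and 206 CPM, and in S100a8, a neutrophil and monocyte gene, at 0, 2.26, 3.78 and 307 CPM. In S4, 68 of the 73 S100a8 UMIs came from 1 cell, and without that cell S4 stood at 21.8 CPM, while Chil3 was spread over 20 of 33 cells. T cells of S4 also held more of both, at 46.3 CPM for S100a8 (0 to 0.628 in the other libraries) and 32.7 CPM for Chil3 (0.890 to 0.968). The part of RNA from other cells in these values was not tested.

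For macrophage maturation genes the change was negative in 17 of 22 tested members (23 with a UMI), and none passed the test. Without overlap 7 were lower and 2 higher, where 16.5% and 20.5% of all genes were. The median was -0.28 and stayed negative without each library in turn, but it was -0.08 without S2 (9 of 22 positive), -0.16 without S3, -0.07 with equal cells and -0.05 with thinned UMIs. Trem2 was at 197, 91.6, 265 and 437 CPM, Cd63 at 240, 257, 344 and 399 CPM, and Ctsl, a lysosomal protease gene, at 224, 316, 482 and 466 CPM. Each was lower in both Adar1-null libraries. Apoe, a lipid carrier, was at 4212, 855, 4455 and 10604 CPM, with S1 and S3 close to each other and S2 and S4 far apart. T cells held 222, 40.4, 87.8 and 501 CPM of Apoe, also lowest in S2 and highest in S4. Lipid-associated macrophage genes had 3 of 13 positive changes and a median of -0.28.

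The marker genes themselves did not pass the genotype test. Fcgr1 was higher in both Adar1-null libraries, with a log2 change of 0.26 ± 0.18 (edgeR adjusted p 0.844). Fcgr4 overlapped between the genotypes, at 0.36 ± 0.33 (edgeR adjusted p 0.906), and so did Ccl2 at -0.60 ± 0.31 (edgeR adjusted p 0.794), Ccl7 at -0.13 ± 0.21 (edgeR adjusted p 0.965) and Ccl12 at -0.44 ± 0.25 (edgeR adjusted p 0.810). The sign of Fcgr4, Ccl7 and Ccl12 changed in at least 1 alternative setting. Of 16 monocyte chemoattractant genes with a UMI, 14 were tested, 4 had a positive change and the median was -0.37, but it was -0.18 without S1, -0.11 without S4, -0.09 with equal cells and -0.07 with thinned UMIs. Of 11 genes that sense or edit double-stranded RNA, 8 were tested, with 5 positive and a median of 0.50, which was 0.22 without S2, 0.30 without S4 and -0.05 with thinned UMIs (2 of 4 positive). Adar itself was at 26.4, 19.2, 7.56 and 16.8 CPM in these host cells.

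Other single genes whose libraries did not overlap were of several kinds. Cdkn1a, the cell cycle inhibitor p21, was higher in Adar1-null tumours at 849, 949, 580 and 408 CPM, Hspa1a, a heat-shock chaperone, at 155, 166, 75.6 and 71.4 CPM, and Il1b, the inflammatory cytokine, at 1427, 1536, 1055 and 765 CPM. Mt1, a metal-binding metallothionein, was lower at 291, 256, 482 and 525 CPM, Clec4e, the receptor Mincle, at 74.0, 105, 164 and 261 CPM, and Cd14, the lipopolysaccharide co-receptor, at 213, 209, 299 and 479 CPM. Their edgeR adjusted p-values lay between 0.216 and 0.404, so none was called. Hspa1a and Il1b did not stand for their lists. Of 15 dissociation and immediate-early genes tested, 3 had a positive change, with a median of -0.21. Of 14 inflammatory macrophage genes tested, 7 had a positive change, with a median of -0.07.

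Of the natural killer cell list, all 7 members with a UMI had a higher mean level in Adar1-null tumours, where 53.1% of all genes did, and none passed the test. Their sum was 222 CPM in S1, 267 in S2, 104 in S3 and 29.4 in S4. Prf1, a defining gene of that list, was at 0 in all libraries. Gzma, granzyme A, was at 77.5, 29.4, 3.78 and 0 CPM, but 41 of 44 UMIs in S1 and 22 of 26 in S2 came from 1 cell each. Klrk1, which encodes the NKG2D receptor, was found in 29 of 87 cells in S1, 68 of 127 in S2, 21 of 65 in S3 and 4 of 33 in S4, so S1 and S3 were alike. Of the T cell list, Cd4 and Icos were at 0 and the sum was 4.20 to 21.1 CPM. The part of natural killer cells or T cells in the other differences was not tested.

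Some genes differed between the genotypes in another way in the intermediates than in a neighbour gate. This was tested as an interaction in edgeR's quasi-likelihood fit with the library as a block. Against Vcam1/Lpl C1q cells 9 of 7766 genes passed (0.116%), 8 with a lower and 1 with a higher response in the intermediates. Against C1q-low monocytes 3 of 5690 passed (0.0527%), all with a lower response. None of them was used to choose the cells.

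The CCR2 ligands Ccl12 and Ccl7 were among the 9. Ccl12 was at 1083, 1480, 1251 and 2206 CPM in the intermediates and at 1416, 1665, 874 and 1015 CPM in Vcam1/Lpl C1q cells. Both Adar1-null libraries were above both controls in the Vcam1/Lpl C1q cells, whereas S4 was highest in the intermediates and the genotypes overlapped. The difference in log2 response was -1.11 ± 0.15 (SE), with an edgeR adjusted p of 3.97e-05. It leaned on cells rich in Ccl12: without the cell with the most Ccl12 UMIs in each library the intermediates stood at 1005, 1394, 1052 and 1391 CPM, and with gate and sums on thinned UMIs the log2 change in the intermediates was 0.65 in place of -0.44. The interaction itself was not refitted in those settings. Ccl7 differed by -0.66 ± 0.13 (edgeR adjusted p 0.0160), and by -0.49 (edgeR adjusted p 0.741) without S1.

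Ccl5, a chemokine for T cells and monocytes, Cd14, Cd69 (an early activation receptor), Marcksl1 and Fn1 (fibronectin) also had a lower response in the intermediates than in Vcam1/Lpl C1q cells. Cd14 was at 118, 141, 101 and 152 CPM in Vcam1/Lpl C1q cells, with no separation, and the difference was -0.93 ± 0.20 (edgeR adjusted p 0.0251). Stmn1 was at 280, 126, 242 and 223 CPM there, also overlapping, and the difference was -1.59 ± 0.28 (edgeR adjusted p 0.00147). Iigp1, an immunity-related GTPase that attacks the vacuoles of parasites, had the higher response, at 95.1, 297, 73.7 and 67.2 CPM in the intermediates and 131, 246, 183 and 185 CPM in Vcam1/Lpl C1q cells. Its difference was 1.33 ± 0.26 (edgeR adjusted p 0.0106), but 0.88 with an edgeR adjusted p of 0.879 without S2.

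Against C1q-low monocytes the 3 genes were Ms4a7, Fn1 and Ccl24. Ms4a7 was at 201, 121, 98.7 and 23.1 CPM in monocytes, with both Adar1-null libraries above both controls, and at 747, 383, 953 and 433 CPM in the intermediates, where the genotypes overlapped. The difference was -1.71 ± 0.26 (edgeR adjusted p 0.00425). The monocytes of S4 were 62 cells with 388787 UMIs in all, so their 23.1 CPM rests on few Ms4a7 UMIs. That gate is also capped on C1q, which Ms4a7 followed within the intermediates, and the part of this was not tested. Fn1 was at 31.7, 17.0, 75.6 and 273 CPM in the intermediates and 142, 127, 117 and 404 CPM in monocytes, with S4 highest in both. Ccl24, an eosinophil attractant, was called on 1, 2, 4 and 25 UMIs in the intermediates, of which 24 of the 25 in S4 came from 1 cell; without that cell S4 stood at 4.33 CPM. The difference was -6.34 (edgeR adjusted p 0.000108), and -4.98 (edgeR adjusted p 0.0457) without S4, where the control level was the 4 UMIs of S3.

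**Figure D5:**
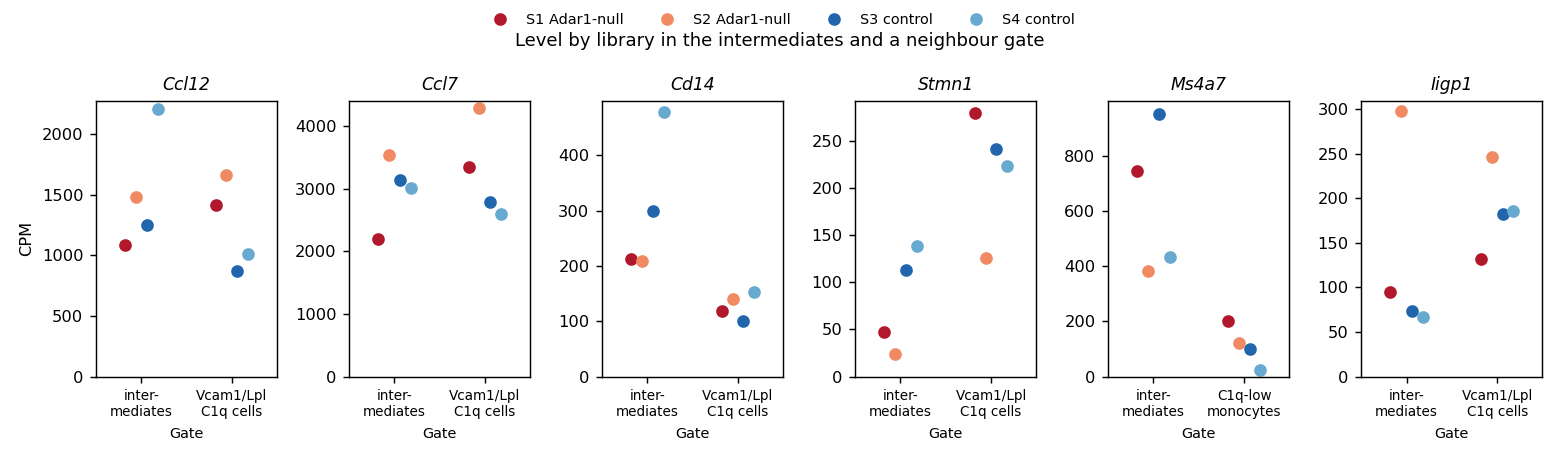
Level in CPM of 6 genes called for a difference in genotype response, in the intermediates and in the neighbour gate of the test; each point is 1 library, red tones for Adar1-null and blue tones for control tumours, and every axis starts at 0. For Ccl12, S1 and S2 lie above S3 and S4 in Vcam1/Lpl C1q cells but not in the intermediates.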

How the data were processed

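The authors deposited 1 matrix of raw UMI counts, not normalized, that covers the 4 libraries. Cell Ranger, Seurat 2.2.0 and mm10 are named in the submitters' processing notes, without the annotation or earlier filters. A floor of 500 genes and a ceiling of 10% mitochondrial UMIs removed 161 barcodes. Scrublet (scanpy 1.11.5) scored doublets per library; its own thresholds marked 4 to 14 cells per library, so a score of 0.1 was used as an alternative and no cell was removed. Free RNA was not corrected. The library name on each barcode gives the genotype and no replicate number.

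Counts were summed per library and gate and scaled to CPM. edgeR 4.0.16 (R 4.3.3) used TMM factors, the default filter on low counts and a robust quasi-likelihood fit; significance is a Benjamini-Hochberg adjusted p under 0.05. DESeq2 1.42.0 was an alternative. The test was tried on simulated counts. Genes were named by rule: adjusted p under 0.05, the smallest p among genes whose libraries do not overlap with a mean of at least 20 CPM, the leading and smallest-p members of each list, and the furthest from each neighbour gate. Members, lists and thresholds were chosen with earlier results of these data known. Counts behind single cells (UMIs from 1 cell) were looked up after the values were seen. Gene coordinates are from GENCODE M21. Intervals cover counting error only.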

Additional observations from a re-analysis of the deposited data

Results flagged for a closer look

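The genotype difference was not the same in the intermediates and in a neighbour gate for the following genes, by edgeR's quasi-likelihood interaction test with Benjamini-Hochberg adjustment over all genes tested; the values are differences in log2 change, intermediates minus neighbour. Against C1q-low monocytes they were -6.34 for Ccl24, -1.71 for Ms4a7 and -1.90 for Fn1. Against Vcam1/Lpl C1q cells they were -1.11 for Ccl12, -1.59 for Stmn1, 1.33 for Iigp1, -0.66 for Ccl7, -2.12 for Cd69, -0.93 for Cd14, -2.55 for Fn1, -0.82 for Ccl5 and -0.82 for Marcksl1.

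Ccl12, Ms4a7 and Ccl24 passed the test with DESeq2 size factors, with no filter on low counts and without each library in turn. Ccl24 had few UMIs in every library of the intermediates, 24 of the 25 in S4 being from 1 cell, and its edgeR adjusted p was 0.0457 without S4. The level of Ccl12 in S4 was 1391 CPM without 1 cell and 2206 CPM with it. The edgeR adjusted p of Stmn1 was 0.113 without S1, that of Cd14 0.104 without S1 and 0.774 without S2, and that of Cd69 0.714 without S2 and 0.122 without S3. For Fn1 it was 0.300 (against monocytes) and 0.115 (against Vcam1/Lpl C1q cells) without S2. Iigp1 was not called without S2 (0.879) and Ccl7 not without S1 (0.741). Ccl5 was not called without S1, S2 or S3 (0.116, 0.839 and 0.355), and Marcksl1 not without S1, S2 or S4 (0.342, 0.654 and 0.0992). With DESeq2 size factors the edgeR adjusted p was 0.134 for Fn1 against Vcam1/Lpl C1q cells and 0.0772 for Ccl5 and for Marcksl1. In Cd69, 14 of the 16 UMIs of S4 came from 1 cell.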

How the results depend on the processing

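Both shares of intermediates were higher in Adar1-null tumours under the 6 alternative settings. Leaving out cells over the doublet score removed no intermediate, so that setting changed only the denominators. The difference in means was 3.20 percentage points of kept cells (2.14 to 4.27 without 1 library) and 12.1 of gated cells (7.54 to 16.7). Since the genotypes did not overlap in either share, leaving out 1 library could change the size of the difference but not its sign. The number of genes called in the intermediates was 1, 3 with DESeq2, 46 with no filter on low counts, 2 with equal cells per library, 0 with gate and sums on thinned UMIs (153 at an unadjusted p under 0.05) and 10 to 105 without 1 library. The most, 54 higher and 51 lower, came without S3. With a C1q sum over 20 the gene called was Stmn1, and Slpi failed the filter. The number of differences in response was 3 from monocytes, 16 with no filter and 2 to 42 without 1 library, and 9 from Vcam1/Lpl C1q cells, 7 to 47 without 1 library; the cause was not tested. The differences in response kept their sign in each alternative run for them, and the log2 change kept its sign for 28 of 31 single genes followed. The others, none of them called, were Ccl7 (-0.13), at 0.41 with thinned UMIs and -0.50 to 0.19 without 1 library, Ccl12 (-0.44), at 0.038 with equal cells and 0.65 with thinned UMIs, and Fcgr4 (0.36), at -0.031 to 1.001 without 1 library. Levels without the cell richest in a gene were added after seeing the data. The type I interferon median lay between 0.28 and 0.74. No paired analysis was possible because the library names carry no replicate number that matches the titles. With 33 intermediates in S4, a gene at a few CPM is not measurable there.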
